A study of Homo sapiens with 6 samples.

Results

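Cancer-testis antigen genes are the subject here, in RNA of HGC-27, a human gastric cancer cell line. Members were the protein-coding genes of GENCODE whose symbols belong to the MAGEA, MAGEB, MAGEC, XAGE, PAGE, GAGE, CSAG, SSX and CTAG families. In all, 65 of the 58825 genes in the count table met this rule. They comprised 12 MAGEA, 11 MAGEB, 3 MAGEC, 5 XAGE, 6 PAGE, 13 GAGE, 3 CSAG, 8 SSX and 3 CTAG genes, all on chromosome X, and SSX2IP on chromosome 1. SSX2IP, which encodes a protein that binds an SSX protein and is found at cell junctions and centrosomes, met the rule by its letters only and is kept apart from the 64 X-linked members. The label GC0643 overexpression was carried by 3 libraries and the label Vector control by the other 3. All 6 came from HGC-27 cells, and the stable lines were made by retroviral infection and puromycin selection. GC0643 is a gene that the study predicted from sequence left unaligned to the reference and placed on the long arm of chromosome 9, and its own counts were not analysed here, so no count used here checks the labels. The study speaks of independent replications for its cell experiments in general, but the labels of these libraries do not say that they came from separate cultures, so the p-values measure the spread between these libraries, which may be technical.

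Cancer-testis antigens are proteins made in male germ cells, in placenta and in many tumours, but in few other adult tissues. Their genes are largely silenced by promoter DNA methylation in somatic cells, and loss of that methylation is a known route to their expression in tumours. MAGE proteins share a domain through which they bind RING-type ubiquitin ligases. The GAGE, PAGE and XAGE proteins form 1 family of small acidic proteins, SSX proteins are transcriptional repressors, and CTAG1B encodes NY-ESO-1, a target of T-cell therapy. Many of these genes lie on chromosome X as near-identical copies, some inverted within large repeats.

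Library totals lay between 20376722 and 21629573 counts with GC0643 overexpression and between 20489033 and 24069166 counts with Vector control. Levels are given as CPM, the count scaled to the size of its library. By the raw totals above, 3 counts correspond to 0.139 to 0.147 CPM with GC0643 overexpression and to 0.125 to 0.146 CPM with Vector control. The CPM of single genes below use slightly rescaled totals. Of 11 gastric and other epithelial markers, TFF2 and GKN1 were at 0 in all 6 libraries. KRT19, TFF1 and MUC5AC had at most 1 count in a library, and KRT18 at most 3. EPCAM had 4 to 7 counts with GC0643 overexpression and 4 to 9 with Vector control, and CDH1 had 1 to 5 and 4 to 9. CLDN18 had 5 to 14 counts with GC0643 overexpression and 2 to 8 with Vector control, and MUC6 had 6 to 12 and 4 to 20. The more widely expressed KRT8 had 83 to 159 counts with GC0643 overexpression and 121 to 133 with Vector control. Of 4 mesenchymal markers, VIM had 62701 to 71432 counts with GC0643 overexpression and 62149 to 74279 with Vector control. FN1 had 892 to 1449 counts with GC0643 overexpression and 655 to 1084 with Vector control, and ZEB1 had 583 to 705 with GC0643 overexpression and 424 to 565 with Vector control. The fourth, CDH2 (N-cadherin), had 13, 3 and 1 counts with GC0643 overexpression, against 5, 5 and 5 with Vector control. Of 8 markers of testis germ cells, DDX4, DAZL, SYCP1, PRM2 and TNP1 were at 0 in all libraries, and PRM1 had 3 counts in 1 vector library and none elsewhere. SYCP3, of the synaptonemal complex, had 3.73 to 5.97 CPM with GC0643 overexpression and 3.62 to 5.68 CPM with Vector control, and ACRV1, of the acrosome, had 2 to 10 counts with GC0643 overexpression and 6 to 9 with Vector control.

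Because many members are copies of one another, the letters that separate them are shown before their counts. CSAG2, first described in a taxane-resistant cell line, and its copy CSAG3 differ at 1 of 381 coding bases. Bases 157 to 216 of their coding sequences (GRCh38; CSAG2 at chrX:152708897-152708956 on the minus strand, CSAG3 at chrX:152759527-152759586 on the plus strand) hold that base, in capitals. Counted from the first coding base it is A187G, with the base of CSAG2 first.
CSAG2: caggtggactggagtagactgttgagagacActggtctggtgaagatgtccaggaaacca
CSAG3: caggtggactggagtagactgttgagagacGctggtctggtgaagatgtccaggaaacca
MAGEA3 and MAGEA6 differ at 18 of 942 coding bases. Bases 577 to 636 hold 4 of these, in capitals (GRCh38; MAGEA3 at chrX:152701409-152701468 on the plus strand, MAGEA6 at chrX:152767015-152767074 on the minus strand). With the base of MAGEA3 first they are G595A, C601T, G613A and G632A.
MAGEA3: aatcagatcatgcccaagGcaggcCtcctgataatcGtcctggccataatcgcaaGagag
MAGEA6: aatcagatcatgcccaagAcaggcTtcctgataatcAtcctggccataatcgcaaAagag
The pairs MAGEA2 and MAGEA2B, XAGE1A and XAGE1B, and CTAG1A and CTAG1B had no difference over 1886, 464 and 759 aligned bases of their canonical transcripts. The share of a member's 100-base words that occurs in the annotated transcripts of no other gene serves below as a measure of how distinct it is. It was 64.2% for MAGEA3 and 65.9% for MAGEA6, but 0.0% for XAGE1A, 27.5% for XAGE1B, 0.992% for CTAG1A, 0.0% for CTAG1B, 10.6% for MAGEA2, 17.6% for MAGEA2B, 11.4% for CSAG2 and 12.5% for CSAG3.

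Which members had counts went with family and with place, which cannot be told apart here. Of the 64 X-linked members, 38 had no count in any of the 6 libraries, 8 had 1 or 2 counts in all, and 18 had enough counts for edgeR's filter. All 3 CSAG, all 3 CTAG and 9 of 12 MAGEA genes were among these 18, which gives 15 of the 18 members that lie together on the distal long arm, between MAGEA9B (from position 149581653) and CTAG2 (to position 154653579). Together these 18, which are all the MAGEA, CSAG and CTAG genes, had 112949 counts. The nearest members outside them, the 3 MAGEC genes from position 141838316 on, had 2 counts in all. Only 3 of the other 46 X-linked members passed, namely MAGEB2, XAGE1A and XAGE1B, and the 46 had 5823 counts in all. In bulk RNA, fewer cells that express a gene and less RNA per cell cannot be told apart.

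The GAGE, PAGE, SSX and MAGEC families, 30 genes, had 7 counts between them. All 8 SSX genes were at 0 in every library. SS18, which is fused to SSX in synovial sarcoma, was abundant. GAGE10, GAGE2A and MAGEC2 had 2 counts each and PAGE2B had 1. A count of 0 over the 6 libraries allows a level of up to 0.023 CPM, for counting error only. Among the MAGEB genes, MAGEB3 had 2 counts and MAGEB4 and MAGEB5 had 1 each. In the MAGEA family MAGEA8 had 1 count, and MAGEA9 and its copy MAGEA9B had none.

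Zeros in these families cannot all be read alike. Of the 38 members with 0 counts, 22 had at least 50% of their 100-base words in no other gene. They include MAGEC1, MAGEC3, PAGE4, XAGE2 and SSX1, all of whose words occur in no other gene. In 11 of the 38 the share was under 10%, among them GAGE2E, GAGE12C, GAGE12D and SSX2 at 0.0% and MAGEA9 at 9.91%. For its tissue RNA libraries, which it processed with the same tools, the study states that uniquely mapped reads were counted. The same is not stated separately for these cell line libraries, and the part of such counting in the zeros of near-identical copies was not tested.

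**Figure D1:**
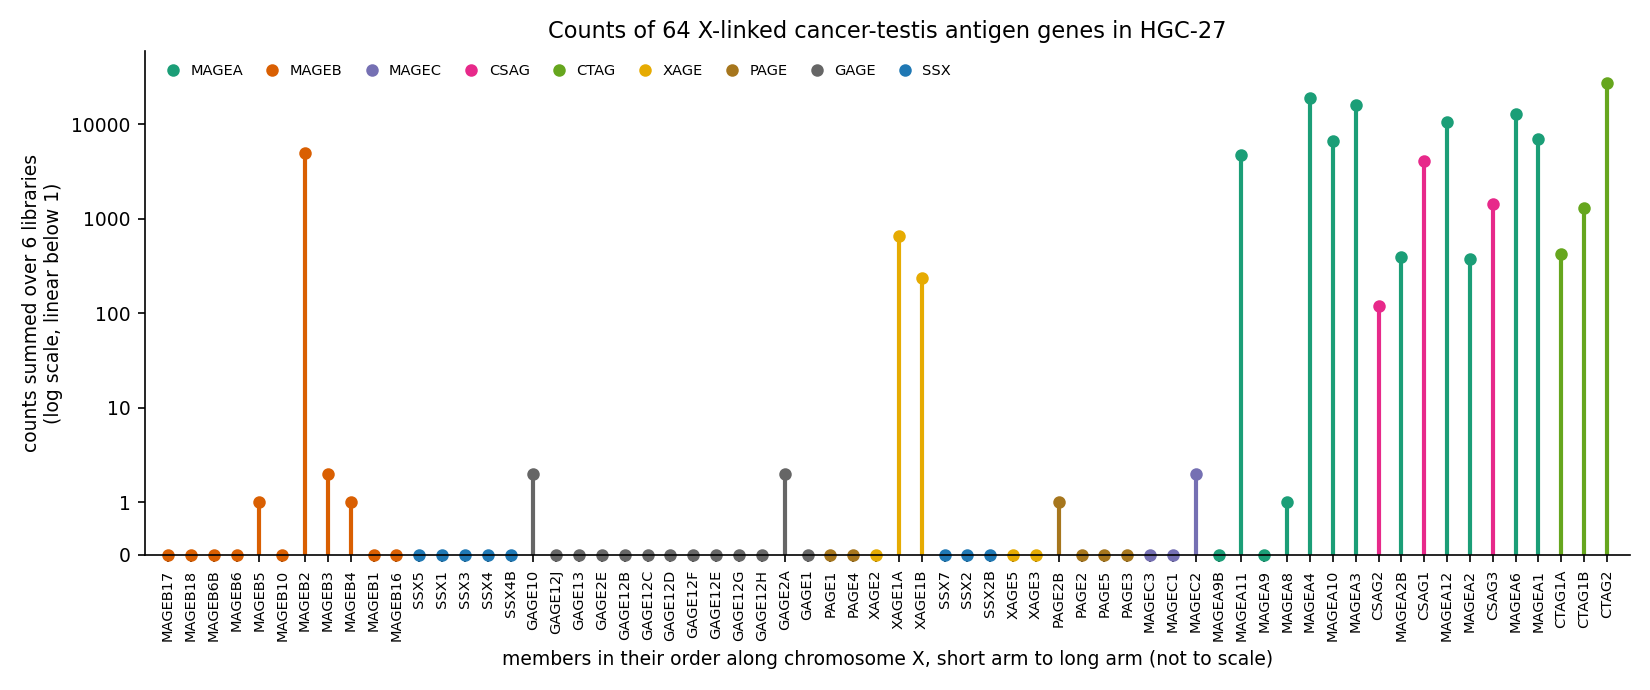
Counts summed over the 6 libraries (vertical axis, logarithmic above 1 and linear below) for each of the 64 X-linked members, in their order along chromosome X and coloured by family. A block of MAGEA, CSAG and CTAG genes at the right holds 112949 counts, and MAGEB2, XAGE1A and XAGE1B are the only tall lines elsewhere.

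Neighbours could differ sharply. MAGEB2 had 4922 counts in all and MAGEB3, which begins 10567 bases further along the same strand, had 2. MAGEA11 had 4685 counts and MAGEA9, 64.7 kb away, none. Only 9.91% of the 100-base words of MAGEA9 occur in no other gene, against 100% for MAGEA11. The 0 of MAGEA9 therefore need not mean absence. Where a CSAG and a MAGEA gene lie head to head, both had counts. CSAG1 (4121 counts) and MAGEA12 (10694 counts) are 21 bases apart, CSAG2 (119) and MAGEA2B (396) are 36 bases apart, and so are MAGEA2 (372) and CSAG3 (1440). CSAG2, MAGEA2B, MAGEA2 and CSAG3 have only 10.6% to 17.6% of their words in no other gene. Counts at either of their pairs may therefore belong to the other pair, which was not tested.

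The 250 bases upstream of the start were available from RefSeq (GRCh38.p14) for 52 of the members, and 4 windows are shown, 2 of members with many counts and 2 of members near 0. CG dinucleotides, the sites of promoter methylation, are in capitals. MAGEB2 (chrX:30215313-30215562, plus strand) holds 15 and MAGEB4 (chrX:30241750-30241999, plus strand) holds 1.
MAGEB2: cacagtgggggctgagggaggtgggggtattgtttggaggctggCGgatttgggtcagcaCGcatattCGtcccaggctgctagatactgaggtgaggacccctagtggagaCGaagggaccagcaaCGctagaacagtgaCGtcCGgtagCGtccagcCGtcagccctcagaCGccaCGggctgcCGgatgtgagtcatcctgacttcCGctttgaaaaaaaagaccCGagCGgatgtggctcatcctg
MAGEB4: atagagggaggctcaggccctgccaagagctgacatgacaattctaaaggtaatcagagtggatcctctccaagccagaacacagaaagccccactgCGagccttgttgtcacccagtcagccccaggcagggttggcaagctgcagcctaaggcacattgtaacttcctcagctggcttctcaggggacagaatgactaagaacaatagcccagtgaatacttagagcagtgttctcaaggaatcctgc
MAGEA3 (chrX:152698544-152698793, plus strand) holds 15 CG and has the same 250 bases as MAGEA6. GAGE1 (chrX:49598770-49599019, plus strand), which was at 0, holds 8, and 9 of 11 GAGE windows, its own included, are identical.
MAGEA3: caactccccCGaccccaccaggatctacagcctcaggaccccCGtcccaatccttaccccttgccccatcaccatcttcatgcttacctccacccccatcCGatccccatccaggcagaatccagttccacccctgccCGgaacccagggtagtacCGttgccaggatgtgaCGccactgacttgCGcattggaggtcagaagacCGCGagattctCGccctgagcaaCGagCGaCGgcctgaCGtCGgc
GAGE1: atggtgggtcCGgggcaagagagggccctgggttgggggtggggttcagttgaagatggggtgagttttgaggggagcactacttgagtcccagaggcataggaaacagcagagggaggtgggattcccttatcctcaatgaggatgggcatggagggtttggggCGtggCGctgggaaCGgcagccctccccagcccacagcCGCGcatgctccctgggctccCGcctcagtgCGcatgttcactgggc
Among members with enough counts, no window was available for CTAG2, CTAG1A, CTAG1B, CSAG2, CSAG3, MAGEA1 and MAGEA10. The 11 windows of X-linked members with enough counts held 5 to 18 CG with a median of 11, and 7 of them (63.6%) held 10 or more. The 41 windows of the other members held 1 to 13 with a median of 8, and 9 (22%) held 10 or more. The ranges overlapped, and single members lay the other way from the 4 windows shown. MAGEA4 and MAGEA12, with 19181 and 10694 counts, held 7 and 5 CG, and MAGEB1, which was at 0, held 13. Over all 35116 windows of the table the median was 11, and 52.2% held 10 or more. The letters CGGAA, the core bound by ETS factors, were searched on both strands and found in 4 of the 11 windows (36.4%), in 10 of the 41 (24.4%) and in 30.3% of all windows. These are descriptions of sequence with no test, several windows are copies of one another, and methylation was not measured in these libraries.

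The order of levels per kb of exon was led by CTAG2, which encodes LAGE-1, a relative of NY-ESO-1. It averaged 217 CPM per kb over the 6 libraries, and its lowest library (174) was above the highest library of any other member. MAGEA3 came next with 71.7 CPM per kb, followed by MAGEA6 with 54.9, MAGEA4 with 44.6 and MAGEA12 with 42.7. The ranges of neighbours within this group overlapped, and the lowest MAGEA12 library (37.7) was above the highest MAGEA1 library (36.8). MAGEA1 averaged 32.0 CPM per kb, CSAG1 29.5, MAGEB2 24.1 and MAGEA10 17.9, again with overlap between neighbours. MAGEA11, CSAG3 and CTAG1B lay close together at 10.6, 10.4 and 10.3, and the other 6 X-linked members averaged 0.844 to 5.66 CPM per kb. The last 8 members in this order, from CSAG3 on, had only 0.0% to 27.5% of their words in no other gene. The 10 members above them had 64.2% or more. Levels were divided by the full exon length of each gene, whether or not its words were shared. The part that read assignment between copies had in the low ranks of these 8 was not tested. In raw counts CTAG2 took 23.3% of the 118772 counts of the X-linked members, and with MAGEA4, MAGEA3, MAGEA6 and MAGEA12 it took 72.8%.

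The design asks whether these levels differed with GC0643 overexpression. As a sum, they differed by less than the spread between libraries. The X-linked members together had 823.2, 998.5 and 950.9 CPM with GC0643 overexpression, against 993.0, 947.5 and 873.2 CPM with Vector control, or 924.2 ± 90.7 against 937.9 ± 60.4 CPM (SD, n = 3 each). The groups overlapped. For single members, log2 ratios are GC0643 overexpression over Vector control from edgeR's quasi-likelihood test, with standard errors (SE) and p-values adjusted over the 19528 genes tested (Benjamini-Hochberg). No member passed an adjusted p of 0.05, and none of the 19528 genes did (0.0% called), the smallest adjusted p being 0.18. With the likelihood ratio test 16 genes passed and with DESeq2 1, none of them a member. With no filter on low counts 224 genes passed, 3 of them members (XAGE1A, CSAG2 and MAGEA2, adjusted p = 2.3e-39, 0.041 and 0.002). The count also depended on single libraries, with 3813 genes past it without the second vector library, 2 of them members (XAGE1A and SSX2IP, adjusted p = 0.041 and 0.044). At an unadjusted p under 0.05 were 3581 genes (18.3%). Among them, 3 members were higher with GC0643 overexpression (XAGE1A, CSAG2 and MAGEA2), against 13.1% of all genes tested. One member was lower (CTAG2), against 5.26% of all genes. Of the 18 X-linked members tested, 12 had a positive and 6 a negative log2 ratio, with a median of 0.07, against a median of 0.018 and 51.9% positive over all genes. Leaving out 1 library at a time, the median of these members was -0.03 to 0.15. No member was higher in all 3 GC0643 libraries than in all 3 vector libraries (11.8% of all genes were), and CSAG3 and CTAG1B were lower in all 3 (10.5% of all genes were).

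**Figure D2:**
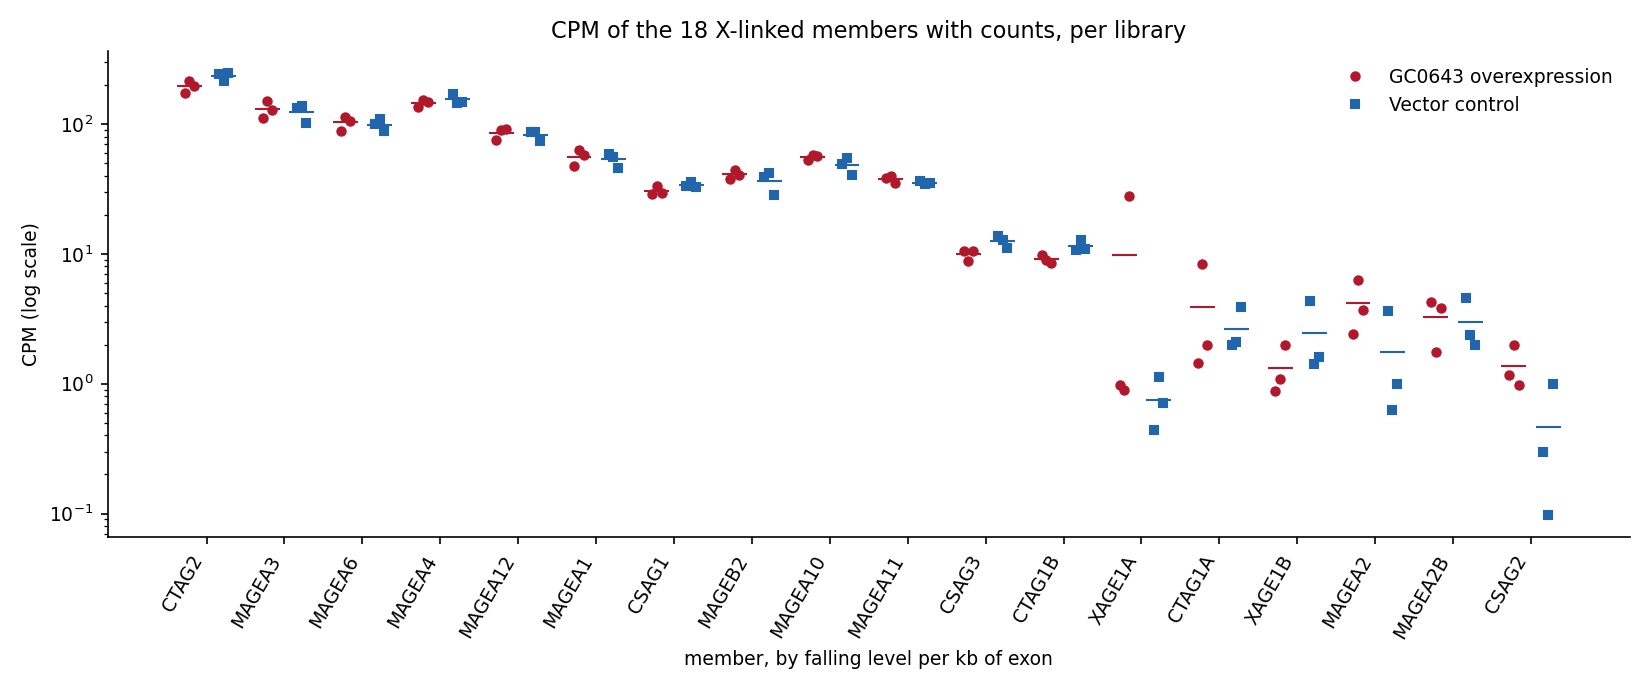
CPM (logarithmic axis) of the 18 X-linked members that passed the filter, with 3 GC0643 overexpression libraries as circles at the left and 3 Vector control libraries as squares at the right of each name and group means as lines. The groups overlap for every member drawn to the left of CSAG3, and 1 GC0643 library of XAGE1A (27.8 CPM) stands far above its other libraries.

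MAGEA3 and MAGEA6, whose proteins bind the ubiquitin ligase TRIM28, had nearly the same level in both groups. MAGEA3 had 112, 150 and 128 CPM with GC0643 overexpression, against 133, 137 and 102 CPM with Vector control. Its log2 ratio was 0.07 (SE 0.14, adjusted p = 0.78). MAGEA6 had 88.6, 113 and 106 CPM with GC0643 overexpression, against 99.6, 109 and 87.7 CPM with Vector control, a log2 ratio of 0.06 (SE 0.13, adjusted p = 0.82). For the sum of both genes the value was 0.07 with a 95% interval of -0.22 to 0.35. The groups overlapped in all 3 measures.

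MAGEA4, the target of an engineered T-cell therapy, had 136, 152 and 148 CPM with GC0643 overexpression, against 172, 145 and 147 CPM with Vector control. The groups overlapped, and the log2 ratio was -0.09 (SE 0.12, adjusted p = 0.68). Its exons overlap those of the antisense gene MAGEA4-AS1 over 186 bases, and with no strand option in the counting stated for the tissue libraries, and none stated for these, reads there cannot be assigned to 1 of the genes with certainty. MAGEA4-AS1 had 111, 119 and 133 counts with GC0643 overexpression, against 126, 128 and 141 with Vector control, far below the 2922 to 3543 counts of MAGEA4.

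MAGEA1, the first of the family to be found as a tumour antigen, had 47.7, 62.9 and 57.8 CPM with GC0643 overexpression, against 59.1, 55.9 and 45.5 CPM with Vector control. Its log2 ratio was 0.07 (SE 0.15, adjusted p = 0.79), with overlapping groups. MAGEA12 had 1618, 1907 and 1856 counts with GC0643 overexpression, against 1750, 1781 and 1782 counts with Vector control, and a log2 ratio of 0.06 (SE 0.13, adjusted p = 0.80). Its head-to-head neighbour CSAG1 had 28.7, 33.3 and 29.3 CPM with GC0643 overexpression, against 33.6, 36.0 and 32.6 CPM with Vector control. CSAG1 had a log2 ratio of -0.16 (SE 0.13, adjusted p = 0.47), and its groups overlapped because the second GC0643 library was above the lowest vector library.

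MAGEA10 had 53.2, 57.6 and 57.0 CPM with GC0643 overexpression, against 49.3, 54.7 and 40.3 CPM with Vector control. Its log2 ratio of 0.22 (SE 0.14, adjusted p = 0.36) was the highest among the 12 X-linked members with at least 1000 counts, but it was 0.03 after a loess correction for GC content, below MAGEA3 (0.11) and MAGEA11 (0.09), and 0.10 without the third vector library. Its groups overlapped. MAGEA10 shares 469 exon bases on the same strand with a long non-coding gene, ENSG00000266560, that had 279 to 300 counts with GC0643 overexpression and 220 to 302 with Vector control. MAGEA11, which encodes a coregulator of the androgen receptor, had 38.7, 39.5 and 35.4 CPM with GC0643 overexpression, against 36.5, 34.5 and 35.3 CPM with Vector control. Its log2 ratio was 0.10 (SE 0.13, adjusted p = 0.66). MAGEB2, the only MAGEB gene past the filter, had 37.9, 44.5 and 40.3 CPM with GC0643 overexpression, against 39.1, 42.3 and 28.4 CPM with Vector control, and a log2 ratio of 0.16 (SE 0.16, adjusted p = 0.54). In MAGEB2 the third vector library was the lowest, as it was in MAGEA10, and without it the log2 ratio of MAGEB2 was 0.0. After GC correction it was 0.03.

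Among the CTAG genes, CTAG2 and CTAG1B were lower on average with GC0643 overexpression, without passing the adjusted p. CTAG2 had 173, 216 and 198 CPM with GC0643 overexpression, against 245, 214 and 248 CPM with Vector control. Only the second GC0643 library reached the range of the vector libraries. The log2 ratio was -0.27 (SE 0.12, unadjusted p = 0.046, adjusted p = 0.27). CTAG2 has a transcript GC content of 65.3%, and after GC correction its log2 ratio was -0.05. CTAG1B had 9.75, 8.97 and 8.58 CPM with GC0643 overexpression, against 10.8, 12.7 and 10.9 CPM with Vector control, without overlap, and a log2 ratio of -0.33 (SE 0.16, adjusted p = 0.28). With GC correction the value for CTAG1B was -0.13. CTAG1A, its exact copy, had 31, 176 and 40 counts with GC0643 overexpression, against 40, 43 and 94 counts with Vector control. The second GC0643 library was the highest of the 6. Its log2 ratio of 0.55 (SE 0.49, adjusted p = 0.51) became -0.66 without that library. The sum of both copies had 240, 366 and 214 counts with GC0643 overexpression, against 260, 304 and 355 with Vector control, and a log2 ratio of -0.12 (SE 0.19, adjusted p = 0.73), which was 0.09 after GC correction.

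XAGE1A had 21, 19 and 563 counts with GC0643 overexpression, against 9, 23 and 17 counts with Vector control. The third GC0643 library had 24.9 times the CPM of the next highest, and the other 5 libraries of both groups overlapped. Its log2 ratio was 3.69 (SE 1.01, unadjusted p = 0.0024, adjusted p = 0.26), and 0.31 without that library. Without the second or the third vector library the adjusted p of XAGE1A was 0.041 or 0.0028. Of all 19528 genes, 4 (0.0205%) had 1 library at least 5 times the next, 2 of them in the third GC0643 library and 2 in the third vector library. XAGE1B, with which XAGE1A shares all of its 100-base words, had 19, 23 and 40 counts with GC0643 overexpression, against 88, 29 and 39 counts with Vector control. Here the first vector library was the highest. The log2 ratio of XAGE1B was -0.89 (SE 0.42, adjusted p = 0.27), and -0.22 without that library. Summing both copies did not remove the high library. The sum had 40, 42 and 603 counts with GC0643 overexpression, against 97, 52 and 56 with Vector control, with a log2 ratio of 1.80 (SE 0.75, unadjusted p = 0.03, adjusted p = 0.26) that was -0.73 without the third GC0643 library.

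CSAG2 had 25, 42 and 20 counts with GC0643 overexpression, against 6, 2 and 24 counts with Vector control. The third vector library lay within the range of the GC0643 libraries and the other 2 lay below it. The log2 ratio was 1.51 (SE 0.54, unadjusted p = 0.014, adjusted p = 0.26), and 2.77 without that vector library, where its adjusted p was 0.0095. CSAG3, the more abundant copy, had 226, 186 and 215 counts with GC0643 overexpression, against 281, 266 and 266 with Vector control, and a log2 ratio of -0.34 (SE 0.16, adjusted p = 0.28). For the sum, the counts were 251, 228 and 235 with GC0643 overexpression, against 287, 268 and 290 with Vector control. The CPM of this sum did not overlap between groups, at 10.8 to 11.7 with GC0643 overexpression and 12.1 to 14.1 with Vector control. Of all genes, 10.5% were lower without overlap. The log2 ratio of the sum was -0.20 (SE 0.15, adjusted p = 0.44).

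MAGEA2 had 52, 134 and 75 counts with GC0643 overexpression, against 74, 13 and 24 counts with Vector control. The first vector library lay within the range of the GC0643 libraries. The log2 ratio was 1.25 (SE 0.48, unadjusted p = 0.020, adjusted p = 0.26). It was 2.32 without the first vector library and 0.80 without the second GC0643 library. MAGEA2B had 91, 37 and 78 counts with GC0643 overexpression, against 93, 49 and 48 with Vector control, with overlapping groups and a log2 ratio of 0.14 (SE 0.35, adjusted p = 0.82). The sum of the copies had 143, 171 and 153 counts with GC0643 overexpression, against 167, 62 and 72 with Vector control. Its first vector library was as high as the GC0643 libraries, and the log2 ratio was 0.65 (SE 0.31, unadjusted p = 0.051, adjusted p = 0.27), or 1.30 without that library.

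**Figure D3:**
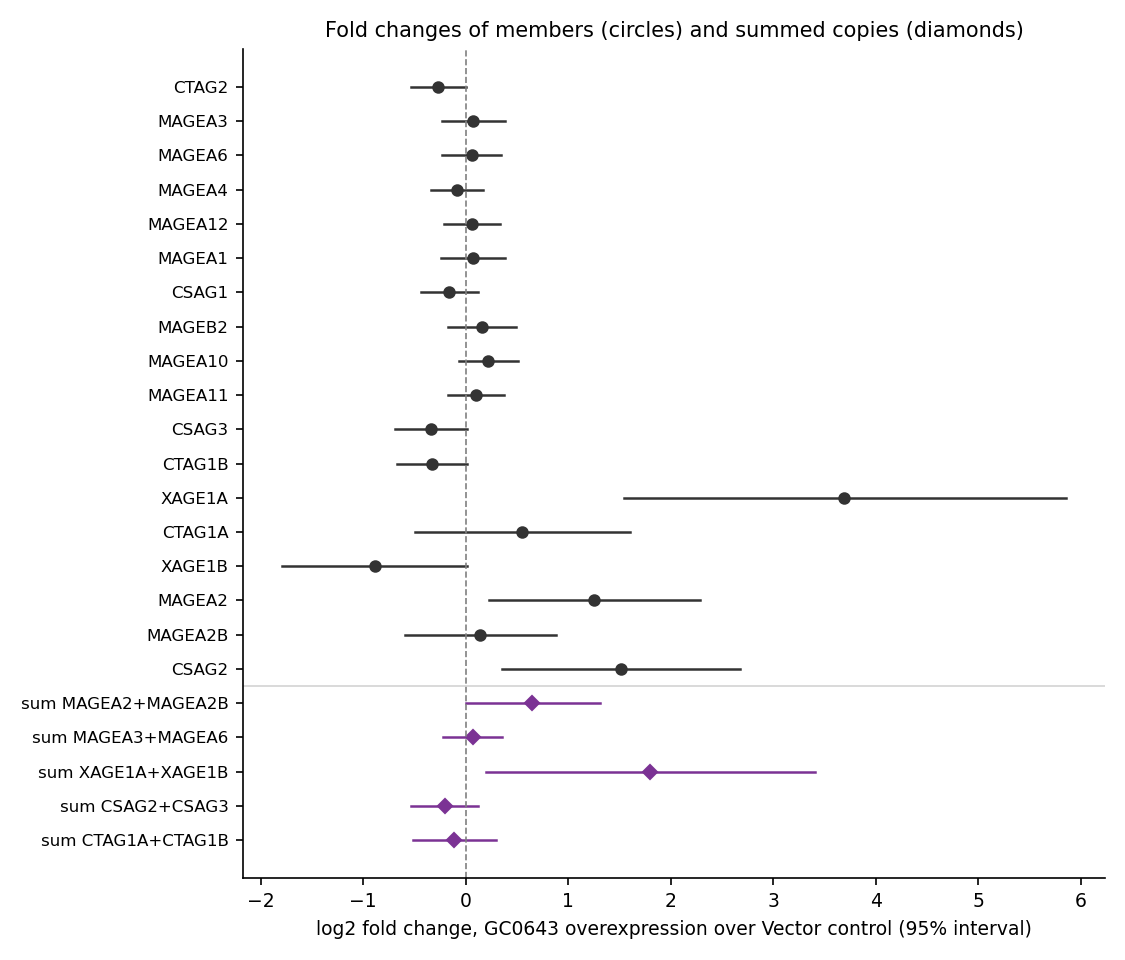
Log2 ratios of GC0643 overexpression over Vector control with 95% intervals (horizontal axis), for the 18 X-linked members tested (circles) and for 5 sums of near-identical copies (diamonds). The members with many counts lie between -0.34 and 0.22, and the widest intervals among the members belong to XAGE1A, CTAG1A, XAGE1B, MAGEA2 and CSAG2.

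The precision of these values differed by member. For the 12 X-linked members with at least 1000 counts, log2 ratios lay between -0.34 and 0.22, and the bounds of their 95% intervals between -0.69 and 0.51. The median half-width of these intervals was 0.29. A split by distinctness was set after the values were seen. The 10 members with at least 50% of their 100-base words in no other gene had log2 ratios of -0.27 to 0.22, 7 of them positive, and their highest library was 1.14 to 1.57 times their lowest in CPM. The 8 members under 50% had log2 ratios of -0.89 to 3.69, 5 of them positive, and their highest library was 1.48 to 62.8 times their lowest. Each of these 8 had fewer counts (119 to 1440 over all libraries) than any of the 10 (4121 to 27635). The part that read assignment between copies had in these differences was not tested.

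How the counts of a pair were divided between its copies was compared over libraries, with the share of 1 copy and its exact 95% binomial interval, which covers counting error only. MAGEA3 had 55.9%, 57.0% and 54.7% of the counts of MAGEA3 and MAGEA6 with GC0643 overexpression, against 57.1%, 55.7% and 53.8% with Vector control. This share stayed within a few points in every library (55.9 ± 1.11% against 55.6 ± 1.69%, SD, n = 3 each, exact two-sided permutation p = 0.8). XAGE1A had 52.5%, 45.2% and 93.4% of its pair with GC0643 overexpression, against 9.28%, 44.2% and 30.4% with Vector control. The GC0643 libraries were all above the vector libraries, but the lowest of them (interval 29.8 to 61.3%) and the highest vector library (30.5 to 58.7%) were alike within counting error. CSAG2 had 9.96%, 18.4% and 8.51% of its pair with GC0643 overexpression, against 2.09%, 0.746% and 8.28% with Vector control. Again no libraries overlapped between groups, and the third library of each group had nearly the same share.

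The difference in mean share was 35.7 points for XAGE1A and 8.59 points for CSAG2, each with an exact permutation p of 0.1, the smallest that 3 against 3 libraries can give, and 0.25 when adjusted over the 5 pairs. MAGEA2 had 36.4%, 78.4% and 49.0% of its pair with GC0643 overexpression, against 44.3%, 21.0% and 33.3% with Vector control (exact permutation p = 0.2, adjusted 0.33). CTAG1A had 12.9%, 48.1% and 18.7% of its pair with GC0643 overexpression, against 15.4%, 14.1% and 26.5% with Vector control (exact permutation p = 0.7, adjusted 0.8). In both pairs the second GC0643 library had the highest share. Within each group, the intervals of the highest and the lowest library did not overlap for MAGEA2, XAGE1A, CSAG2 or CTAG1A. For MAGEA3 they overlapped with GC0643 overexpression (55.7 to 58.3% and 53.3 to 56.2%) and narrowly missed each other with Vector control (55.7 to 58.6% and 52.3 to 55.2%).

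**Figure D4:**
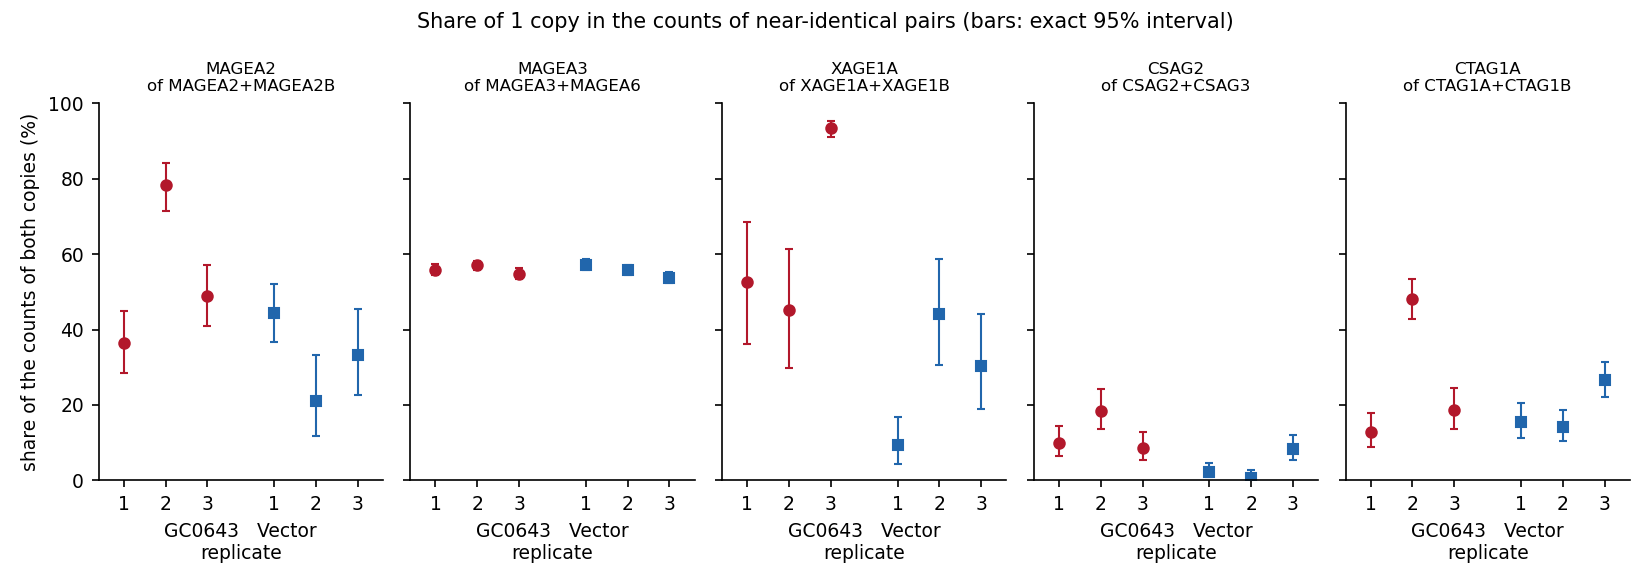
Share of 1 copy in the summed counts of 5 near-identical pairs (vertical axis, %), for the 3 GC0643 overexpression libraries (circles, left) and the 3 Vector control libraries (squares, right), with exact 95% binomial intervals. MAGEA3 stays between 53.8% and 57.1% in all 6 libraries, while XAGE1A ranges from 9.28% to 93.4%.

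Related genes outside the families were read in 4 lists. The type II MAGE genes are expressed in most tissues, and 9 of 12 were tested. Of these, 6 had positive and 3 negative log2 ratios with a median of 0.11. None passed an unadjusted p of 0.05, against 18.3% of all genes tested. The 4 with the smallest p were MAGEH1 (log2 ratio 0.25, SE 0.18), TRO (0.11, SE 0.13), MAGED1 (-0.09, SE 0.11) and MAGEE1 (0.17, SE 0.28). MAGED1, which encodes an adaptor in neurotrophin signalling, had 150, 163 and 153 CPM with GC0643 overexpression, against 165, 163 and 168 CPM with Vector control. Before rounding its groups did not overlap. It was lower in all 3 GC0643 libraries, as were 10.5% of all genes.

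Genes for partners of MAGE and SSX proteins were nearly all expressed, with 13 of 14 tested, 8 positive, 5 negative and a median of 0.10. An unadjusted p under 0.05 was reached by 2 of the 13, both higher, where 13.1% of all genes were higher at that p. SS18, a subunit of the BAF chromatin remodelling complex, had 2051, 1828 and 1945 counts with GC0643 overexpression, against 1260, 1741 and 1174 with Vector control. Its log2 ratio was 0.51 (SE 0.17, adjusted p = 0.26). PRKAA1, the AMPK subunit that MAGEA3 and MAGEA6 with TRIM28 target for degradation, had 0.39 (SE 0.14, adjusted p = 0.26). SNW1, a transcriptional and splicing cofactor, and RNF8, a ubiquitin ligase of DNA repair, each had 0.27 (SE 0.14 and 0.15, unadjusted p = 0.077 and 0.088). SSX2IP itself had 538, 480 and 514 counts with GC0643 overexpression, against 338, 503 and 471 with Vector control, with overlapping groups. Its log2 ratio of 0.27 (SE 0.16, adjusted p = 0.34) was -0.08 after GC correction.

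A list of 18 genes covered DNA methylation and methylation of histone H3 at lysine 9, processes known to silence cancer-testis genes. Beside genes of silencing it holds TET1, TET2 and TET3, which oxidise methylcytosine, and CTCF and CTCFL. Its values are thus not those of a silencing machinery alone. In all, 16 were tested, with 6 positive, 10 negative and a median of -0.03, which was 0.03 after GC correction. One of the 16 passed an unadjusted p of 0.05, as did 18.3% of all genes tested. It was SUV39H2, a histone methyltransferase, with 0.45 (SE 0.19, adjusted p = 0.26). Next came MPHOSPH8, a subunit of the HUSH silencing complex (0.35, SE 0.17), TET1, which oxidises methylcytosine (0.32, SE 0.15), and ATF7IP, a partner of SETDB1 (0.23, SE 0.14). DNMT1, the maintenance methyltransferase, had 11244, 13381 and 12968 counts with GC0643 overexpression, against 13259, 12798 and 13860 with Vector control.

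Among 39 other cancer-testis and germ line genes, 21 were at 0 in all libraries and 10 were tested. Of the 10, 9 had positive log2 ratios, with a median of 0.41 that was 0.11 after GC correction. An unadjusted p under 0.05 was reached by 6, all higher, against 13.1% of all genes higher at that p, and the number of such genes over the whole table was 2553 without and 550 with GC correction. TTK, a kinase of the spindle checkpoint, had 617, 605 and 667 counts with GC0643 overexpression, against 389, 456 and 347 with Vector control. Its groups did not overlap, and its log2 ratio was 0.70 (SE 0.16, unadjusted p = 0.00069, adjusted p = 0.26). PBK, a mitotic kinase, had 0.52 (SE 0.16), SPAG9, a scaffold of JNK signalling, 0.49 (SE 0.16), and CEP55, which acts in cytokinesis, 0.44 (SE 0.17), each with an adjusted p of 0.26. TTK, PBK and CEP55 act in cell division and are expressed in most dividing cells. PRAME, the classical antigen of this list, had 1721, 1759 and 1559 counts with GC0643 overexpression, against 1721, 1650 and 1706 with Vector control, and a log2 ratio of 0.03 (SE 0.12, adjusted p = 0.91). The groups overlapped.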

How the data were processed

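RNA of 3 GC0643 overexpression and 3 Vector control libraries was analysed from 1 table of deposited counts. Per the labels and the submitters' processing notes, the authors made NEBNext Ultra libraries, used Trimmomatic 0.32 for trimming and HISAT2 2.1.0 for alignment to GRCh38, and obtained whole-number counts per gene from featureCounts 2.0.0. For its tissue RNA, with the same tool versions, the study counted uniquely mapped reads over exons, for each gene they overlapped and with no strand option. Whether these cell line counts were made with the same options is not given in the sources used here. Of 58825 genes, 58472 matched GENCODE version 44 by Ensembl ID. The 65 members and all lists were chosen with earlier results of these data known.

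Counts were fitted in R 4.3.3 with edgeR 4.0.16 (filterByExpr, TMM, quasi-likelihood test, group as the only term), with Benjamini-Hochberg adjustment over the 19528 genes kept. The biological coefficient of variation was 14.84%. CPM uses TMM-scaled totals. Near-identical copies were also summed and refitted within the whole table. Shares of copies were compared by exact permutation tests (scipy 1.17.1), for the pairs with at least 10 counts in every library. Transcripts were aligned with Biopython 1.88, and words of 100 bases were compared over all GENCODE transcripts on both strands. Promoter windows came from RefSeq (GRCh38.p14).

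Named were all members kept by the filter, both copies and the sum of each pair with at least 10 counts, and the 4 genes with the smallest p of each other list. DNMT1, PRAME, the genes that overlap members, the members with 1 or 2 counts, the examples of members at 0, the marker genes and the promoter windows were named after their values were seen. Alternatives were DESeq2 1.42.0, limma 3.58.1 (voom), the likelihood ratio test, no filter, CPM over 1 in at least 3 libraries, size factors from DESeq2, library size alone, a replicate block, a loess GC correction (span 0.3, prior count 1), both together, and leaving out each library. The code was tested on simulated counts.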

Additional observations from a re-analysis of the deposited data

How the results depend on the processing

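Of the values recomputed under the alternatives, 41 moved, 10 passed the threshold and 21, for members, sums or shares, changed sign. The other 506 kept, where an adjusted p was given, their side of the threshold. They kept their direction, except for medians near 0. Leaving out 1 library, the median of the X-linked members was -0.03 to 0.15 and that of the DNA methylation list -0.05 to 0.05. The latter was 0.03 after GC correction. Counts among the 506 could shift, as with 1445 genes lower at an unadjusted p with DESeq2's size factors, against 1028. Over all genes the count past the adjusted p was 0. It was 1 with DESeq2's size factors, 224 with no filter, 16 with the likelihood ratio test, 1 with DESeq2 and 0 to 3813 leaving out 1 library, the highest without vector replicate 2. Genes higher at an unadjusted p under 0.05 numbered 2553, but 550 after GC correction and 827 to 4564 leaving out 1 library. Genes lower numbered 1028, but 629 after GC correction and 367 to 2842 leaving out 1 library.

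Members past the adjusted p numbered 0. They were 3 with no filter (XAGE1A, CSAG2 and MAGEA2, with log2 fold changes of 3.70, 1.52 and 1.26) and 0 to 2 leaving out 1 library. Those were SSX2IP (0.43) and XAGE1A (4.06) without vector replicate 2, and XAGE1A (3.63) and CSAG2 (2.77) without vector replicate 3. Members higher at an unadjusted p numbered 3, but 1 with DESeq2 and 1 to 4 leaving out 1 library. Members lower numbered 1, but 4 with DESeq2 or its size factors, 2 with no filter and 0 to 3 leaving out 1 library. Of the summed pairs, 0 passed the adjusted p, and 1 did with no filter (XAGE1A and XAGE1B, 1.81). Without SSX2IP, an alternative chosen after seeing the data, the counts of members past the adjusted p, higher and lower were 0, 3 and 1.

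SSX2IP was at -0.08 and the CTAG1A and CTAG1B sum was 0.09 after GC correction. Leaving out 1 library, signs changed for MAGEA1 (-0.04 to 0.18), MAGEA12 (-0.02 to 0.14), MAGEA2B (-0.09 to 0.58), MAGEA3 (-0.06 to 0.17), MAGEA6 (-0.03 to 0.15), CTAG1A (-0.66 to 0.94), the sums of MAGEA3 and MAGEA6 (-0.05 to 0.16), XAGE1A and XAGE1B (-0.73 to 2.31) and CTAG1A and CTAG1B (-0.39 to 0.01), and the differences in share of MAGEA3 (-0.557 to 1.12 points) and CTAG1A (-2.87 to 14.7 points). The medians of the X-linked members and of the DNA methylation list also changed sign, as given above. Each cause was not tested. DESeq2 gave no adjusted p for XAGE1A, CSAG2 or the sum of XAGE1A and XAGE1B, and CSAG2 was not tested with CPM over 1 in at least 3 libraries.

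Replicate numbers were not taken as a pairing, since same-numbered libraries correlated at -0.22, -0.0358 and -0.319 in their deviations from the group means, so the replicate block was not used. With the replicate block, 24 genes passed the adjusted p, 314 were lower at an unadjusted p, and 2 members passed (XAGE1A at 2.53 and MAGEA2 at 1.41). With the replicate block and GC correction, 2 genes passed, 389 were higher and 387 lower, SSX2IP was at -0.07 and the CTAG1A and CTAG1B sum at 0.06.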
